A study of Homo sapiens with 6 samples.

Results

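Heme is made from glycine and succinyl-CoA by a chain of enzymes that starts in the mitochondrion, continues in the cytosol and returns to the mitochondrion, where iron is inserted into protoporphyrin IX. The committed step is run by 5-aminolevulinate synthase, which has a housekeeping form (ALAS1) and an erythroid form (ALAS2), and red cell precursors depend on the latter for hemoglobin. Heme oxygenase breaks heme down by opening the heme ring, which releases iron, carbon monoxide and biliverdin.

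The genes described here were the 9 genes named ALAS1, ALAS2, ALAD, UROS, UROD, CPOX, PPOX, FECH and HMOX2, out of 24960 genes in the table. They were taken by symbol and in pathway order, with no threshold on a measured value, although earlier results of these data were known when they were chosen. Of these, 8 encode synthesis enzymes and HMOX2 encodes the constitutive heme oxygenase, and not every step of the pathway is represented. The samples were 6 RNA-seq libraries from K562, an established chronic myeloid leukemia (CML) line with erythroid features. The control group had 3 libraries and the hyperoside group had 3. Hyperoside is a plant flavonol glycoside, and the dose was 2 mM. Neither the vehicle of the control group nor the length of treatment before RNA extraction is given in the sources used here. A cell line of this kind stands for 1 leukemia, and no label says that the replicates came from separate cultures, so the p-values below measure the spread between these libraries, which may be technical.

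Library totals ran from 35613283 to 36754725 gene counts, and all 9 genes passed the filter on low counts, with 857 to 9440 counts per library. Counting error alone is then at most 3.42% of a value. Intervals below come from the spread between libraries, which edgeR moderates with information from all tested genes. They are thus not a measure of each gene's own spread alone. The erythroid character of the cells was present in the data, since 10 of 10 listed erythroid markers passed the filter and summed to 4573 to 5607 normalized CPM (counts scaled to library size) in the control group and 4135 to 4997 in the hyperoside group, with 3 called higher and 3 lower. Of 10 markers of other cell types, 5 lay under 1 CPM in every library, and MS4A1, a B cell marker, had a count in 1 library only. Others were well detected: EPCAM, an epithelial marker, had 74.3 to 82.2 CPM and CD3D, a T cell marker, 28.3 to 42.5. EPCAM was not called, CD3D was called higher (log2 fold change 0.29) and COL1A1 lower (-0.99). The summed level of that list was 121 to 134 CPM in controls and 149 to 154 with hyperoside, with 2 of 7 tested called higher and 1 lower, and its single DEG was PECAM1, a marker of endothelial cells and platelets, with a log2 fold change of 1.52. Of all tested genes, 22.1% were called higher and 23.2% lower at an edgeR adjusted p under 0.05. The counts of both marker lists are to be read against these shares. The part of the markers in the results below was not tested. Control replicate 1 stood apart from the other controls, with a chi-square statistic per degree of freedom of 20.3 and 23.1 against them, while the other pair gave 6.34. Values without it are given where they change a call.

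In GENCODE 29 on GRCh38, ALAS1 (NCBI gene 211) spans 52198086 to 52214327 of chromosome 3 (plus strand), and ALAS2 (gene 212) spans 55009055 to 55031064 of chromosome X (minus strand). The 5′ UTR of ALAS2 is known to hold an iron-responsive element, a small hairpin to which iron regulatory proteins bind when iron is scarce and so block translation. A search for its letters took a C, 5 bases, the loop CAGTG followed by A, C or T, and 5 bases that pair with the first 5, G-U pairs included, in the first 100 bases of transcripts, read on the transcript's strand. It found 1 such stretch in 7 ALAS2 transcripts, at chrX:55030947-55030963, and all of it lay in the 5′ UTR. It is shown because it acts on translation, which read counts do not measure, with the invariant loop bases in capitals.

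ALAS2 hairpin: cgtcctCAGTGcagggc

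The same letters were found in 19 of 19669 protein-coding genes (0.0966%), and ALAS1 was not among them. RefSeq promoter windows on GRCh38.p14 were available for 8 of the 9 members, and that of UROS was not used here. The 250 bases before the start are printed for the 2 synthases, since the groups differed in both transcripts. Capitals mark, on either strand, GATA motifs (the letters AGATAA, also with a final G in AGATAG, with a first T in TGATAA, or with both in TGATAG), the CACCC box bound by erythroid KLF1, the antioxidant response element core TGACNNNGC, and TATAAA. The window of ALAS1 is chr3:52197833-52198082 on the plus strand, and that of ALAS2 is chrX:55030978-55031227 on the minus strand.

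ALAS1 promoter: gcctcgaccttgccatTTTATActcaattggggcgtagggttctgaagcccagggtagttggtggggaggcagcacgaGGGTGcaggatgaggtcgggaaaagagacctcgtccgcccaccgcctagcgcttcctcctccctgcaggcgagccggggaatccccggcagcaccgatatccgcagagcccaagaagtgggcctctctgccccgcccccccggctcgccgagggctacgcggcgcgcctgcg

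ALAS2 promoter: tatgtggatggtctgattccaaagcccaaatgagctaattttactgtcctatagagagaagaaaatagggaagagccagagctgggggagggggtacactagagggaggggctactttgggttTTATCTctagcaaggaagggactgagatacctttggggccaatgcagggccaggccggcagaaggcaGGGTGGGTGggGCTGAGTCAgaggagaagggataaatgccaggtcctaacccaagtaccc

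The ALAS2 window held 1 GATA motif at 127 to 122 bases before the start, 2 CACCC boxes that share a base at 60 to 52, and 1 antioxidant response element core at 49 to 41. The ALAS1 window held 1 CACCC box and 1 TATAAA, and no GATA motif or antioxidant response element core. Among all 35116 promoter windows of this length, 22.3% held a GATA motif, 54.7% a CACCC box, 10.9% the antioxidant response element core and 10.7% TATAAA, so no motif here is rare. The other member with the antioxidant response element core was FECH, with 1 match at 38 to 30 bases before the start. Windows of ALAD, CPOX, PPOX and HMOX2 held a GATA motif. ALAD, PPOX and HMOX2 each also had another window, from a different start, with 0 GATA motifs. These are matches of letters and not measured binding.

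Level per length, in FPKM (counts divided by gene length and library total), differed widely along the pathway. UROD, the cytosolic decarboxylase that makes coproporphyrinogen, was the highest member with a mean of 152 FPKM over the 6 libraries, and ALAS2 was next with 107. UROS, the synthase that closes the tetrapyrrole ring, was the lowest with 5.23, so UROD lay 29.04-fold above it per length. Much of that gap is the length divisor, 1193 bases for UROD and 5871 for UROS. In normalized CPM, not divided by length, the control means were 180 for UROD and 35.9 for UROS. The libraries ranged from 139 to 162 FPKM for UROD and from 4.08 to 6.38 for UROS.

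Between these ends the order of the means differed between the groups. In controls it ran from CPOX (24.3 ± 1.70 FPKM, SD, n = 3 here and below) to ALAS1 (21.9 ± 1.62), HMOX2 (14.6 ± 0.454), PPOX (13.3 ± 0.737), ALAD (12.8 ± 1.04) and FECH (12.2 ± 0.511). With hyperoside it ran from ALAS1 (27.1 ± 0.498) to CPOX (24.1 ± 1.15), PPOX (15.4 ± 1.04), ALAD (11.8 ± 0.992), HMOX2 (11.2 ± 0.921) and FECH (11.1 ± 0.528). HMOX2 lay above PPOX in every control library and below it in every hyperoside library. In controls the libraries of CPOX and ALAS1 overlapped, as did those of PPOX and ALAD and of ALAD and FECH. With hyperoside ALAD overlapped with HMOX2, and HMOX2 with FECH. All other neighbours within a group had ranges that did not overlap. These levels are those of the transcripts and depend on the gene lengths behind the deposited values, which ranged from 1193 bases for UROD to 7880 for FECH. The order differs without that divisor. In control CPM, FECH (97.9) lay above ALAS1 (54.9), PPOX (54.8), ALAD (48.6) and HMOX2 (40.7).

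**Figure D1:**
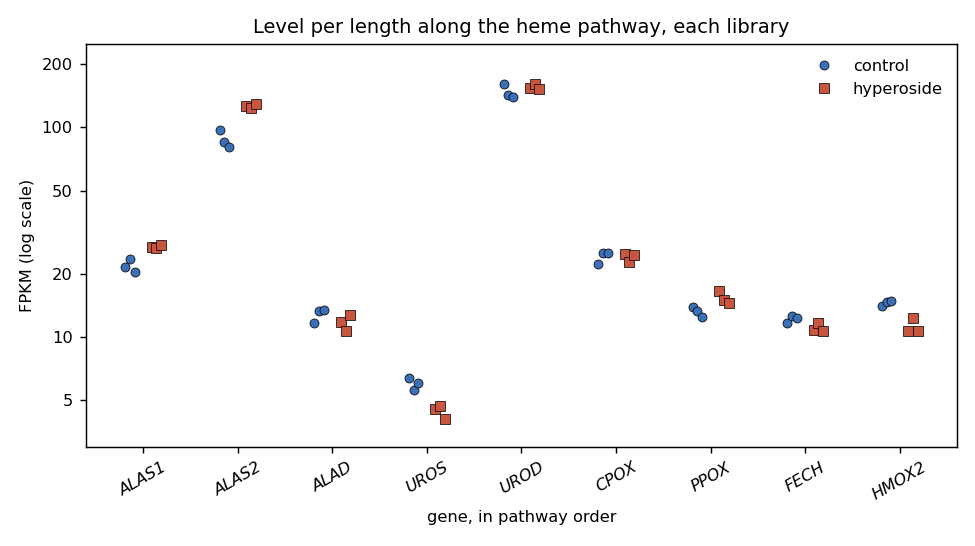
FPKM of each of the 9 genes in pathway order on a log scale, with circles for the 3 control libraries and squares for the 3 hyperoside libraries. UROD and ALAS2 sit at the top, UROS at the bottom between 4.08 and 6.38 FPKM, and the remaining genes between them.

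Hyperoside was compared with control to ask which transcripts of the pathway differed. The synthases of the committed step rose, UROS, FECH and HMOX2 fell, and ALAD, UROD, CPOX and PPOX did not pass the test. At an adjusted p under 0.05 in edgeR's quasi-likelihood test, 2 of 9 members were called higher and 3 of 9 lower. Over all 15095 tested genes 22.1% were called higher and 23.2% lower, so the members' share of calls is near the background in either direction and is no result about the pathway as a set. None also had a fold change above 2, the rule used here for differentially expressed genes (DEGs), which 6.43% of tested genes passed upward and 3.76% downward. The normalized CPM of the groups did not overlap, with hyperoside higher, in 2 members against 27.1% of all tested genes, and with hyperoside lower in 3 members against 27.3%. The median log2 fold change was -0.06 over the 9 members and 0.0032 over all tested genes.

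ALAS2, the erythroid synthase, had 207, 177 and 164 normalized CPM in control replicates 1, 2 and 3, and 252, 251 and 261 in hyperoside replicates 1, 2 and 3. Every hyperoside library lay above every control library, and control replicate 1 was the nearest to them. The means were 183 ± 22.1 and 255 ± 5.94 CPM (SD, n = 3 libraries each), a 1.39-fold rise. Its log2 fold change was 0.48 (standard error 0.08, edgeR adjusted p = 1.22e-04), with a 95% interval of 0.31 to 0.65. Without control replicate 1 the log2 fold change was 0.58. In bulk RNA, more cells with a transcript and more of it per cell cannot be told apart, here and for the genes below.

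ALAS1, the synthase that most cells use, had 55.4, 58.97 and 50.3 CPM across control replicates 1 to 3 and 64.7, 64.7 and 67.6 across hyperoside replicates 1 to 3. The groups did not overlap, but the gap between them was narrower than for ALAS2. The means were 54.9 ± 4.36 and 65.6 ± 1.65 CPM (SD, n = 3 each), a 1.20-fold rise. The log2 fold change was 0.26 (standard error 0.08, edgeR adjusted p = 0.0174, 95% interval 0.08 to 0.43). This call did not hold for every set of libraries: the edgeR adjusted p was 0.0949 without control replicate 3 and 0.0601 without hyperoside replicate 3. Over 13 alternative settings of processing and libraries, which include DESeq2 and limma beside edgeR, the adjusted p ranged from 0.00544 to 0.0949.

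The synthases could be compared within a library, since FPKM is per length. ALAS2 had 4.50, 3.61 and 3.93 times the FPKM of ALAS1 across control replicates 1 to 3 and 4.68, 4.66 and 4.65 times across hyperoside replicates 1 to 3. The hyperoside libraries all lay above the controls, and the controls spread more than the difference to the nearest of them. The mean ratio was 4.01 ± 0.453 in controls and 4.66 ± 0.0168 with hyperoside (SD, n = 3 each). The difference of the log2 ratios, 0.22, gave p = 0.1 when all 20 regroupings of the libraries were enumerated (exact permutation test, two-sided), which is the smallest p that 3 against 3 allow, so it could not pass 0.05. ALAS2 made up 79.95 ± 1.77% of the summed ALAS FPKM in controls and 82.3 ± 0.0523% with hyperoside (SD, n = 3 each). That sum was 101 to 118 FPKM in the control libraries and 151 to 156 in the hyperoside libraries.

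Of the 9300 other tested genes with a mean of at least 10 CPM, those whose centred log2 CPM over the 6 libraries lay nearest to ALAS2 were RAB11B, DTNBP1 and FBXO46, with root mean square differences of 0.0344, 0.0357 and 0.0379. Those nearest to ALAS1 were NSMCE2, TBCC and EXOC4, with 0.0238, 0.0278 and 0.0327. None of these 6 is a gene of heme synthesis. They are the closest of many candidates over few libraries and are given as a description.

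Summed over the 8 synthesis enzymes, the level was 346, 322 and 310.1 FPKM across control replicates 1 to 3 and 376, 376 and 376 across hyperoside replicates 1 to 3. The groups did not overlap, and UROD and ALAS2 made up most of each sum. Mean ALAS2 went from 87.6 to 126 FPKM, while ALAD, UROS, CPOX and FECH had lower means with hyperoside, so the sum is no change shared by all 8. FPKM is also scaled by library totals, which moved the median log2 fold change of all genes up by 0.05 against TMM.

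The next steps run in the cytosol. ALAD (chromosome 9, 113386317 to 113401333, minus strand), which joins 2 molecules of 5-aminolevulinate into porphobilinogen, had 45.4, 50.1 and 50.4 CPM across control replicates 1 to 3 and 42.9, 39.5 and 47.15 across hyperoside replicates 1 to 3. The groups overlapped, since hyperoside replicate 3 lay above control replicate 1. Its log2 fold change of -0.17 (standard error 0.09, edgeR adjusted p = 0.135) had a 95% interval of -0.36 to 0.02, which leaves room for a fall to 0.778 of the control level. Without control replicate 1 it was -0.22 with an edgeR adjusted p of 0.0364.

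UROS had 39.1, 33.3 and 35.3 CPM across control replicates 1 to 3 and 26.2, 27.2 and 23.7 across hyperoside replicates 1 to 3. All hyperoside libraries lay below all controls. The means were 35.9 ± 2.97 and 25.7 ± 1.78 CPM (SD, n = 3 each), 71.6% of the control level, and this was the largest fall among the 9 members. The log2 fold change was -0.48 (standard error 0.10, edgeR adjusted p = 6.06e-04, 95% interval -0.69 to -0.28). The gene spans 125784980 to 125823285 of chromosome 10 (minus strand), and no exon of another annotated gene overlaps its exons. As UROS fell and the synthases rose, UROS FPKM went from 5.50 ± 0.428% of the summed ALAS FPKM in the control group to 2.90 ± 0.265% in the hyperoside group (SD, n = 3 each), a quantity chosen after the values were seen and given without a test.

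UROD (chromosome 1, 45012147 to 45015575, plus strand) had 202, 172 and 166 CPM across control replicates 1 to 3 and 180.02, 188 and 180.3 across hyperoside replicates 1 to 3. The control libraries surrounded the hyperoside libraries on both sides. Its fitted log2 change was 0.02 (standard error 0.08, edgeR adjusted p = 0.837), with a 95% interval of -0.14 to 0.19. A change beyond 0.906-fold or 1.14-fold is thus outside the interval.

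CPOX (chromosome 3, 98579446 to 98593723, minus strand), the oxidase in the space between the mitochondrial membranes, had 115, 126 and 125 CPM across control replicates 1 to 3 and 119.9, 111 and 121 across hyperoside replicates 1 to 3. The groups overlapped, with the lowest value in the hyperoside group and the highest in the control group. The fit gave CPOX a log2 fold change of -0.06 (standard error 0.07, edgeR adjusted p = 0.562), with a 95% interval of -0.21 to 0.10. Exons of CPOX share 163 bases with AC021660.3 on the same strand, and reads there cannot be told apart by position.

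PPOX (chromosome 1, 161166410 to 161178013, plus strand), which makes protoporphyrin IX at the inner mitochondrial membrane, had 59.3, 54.7 and 50.6 CPM across control replicates 1 to 3 and 65.5, 59.9 and 58.6 across hyperoside replicates 1 to 3. The groups overlapped, since control replicate 1 lay above hyperoside replicate 3. In the fit PPOX came out 0.16 higher on the log2 scale (SE 0.09, edgeR adjusted p = 0.139, 95% interval -0.02 to 0.34). Without control replicate 1 it was 0.22 with an edgeR adjusted p of 0.0206. PPOX exons overlap those of B4GALT3 on the opposite strand over 1118 bases, and since the use of strand is not given in the sources used here, reads of the pair cannot be told apart there.

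FECH (chromosome 18, 57548283 to 57586772, minus strand) is ferrochelatase, which inserts iron into protoporphyrin IX and needs an iron-sulfur cluster. It had 95.98, 101 and 96.6 CPM across control replicates 1 to 3 and 82.9, 90.4 and 83.8 across hyperoside replicates 1 to 3. The groups did not overlap, with hyperoside replicate 2 nearest to the controls. The means were 97.9 ± 2.70 and 85.7 ± 4.09 CPM (SD, n = 3 each), 87.6% of the control level. The log2 fold change was -0.19 (standard error 0.07, edgeR adjusted p = 0.0427, 95% interval -0.35 to -0.04). This was the least settled call among the members: 9 of 13 alternatives gave an adjusted p above 0.05, up to 0.171, while the direction was lower in all 13. The call was lost without control replicate 2 or 3 and without hyperoside replicate 1 or 3, where the log2 fold change lay between -0.20 and -0.16.

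HMOX2 (chromosome 16, 4474690 to 4510347, plus strand) had 40.4, 40.8 and 40.9 CPM across control replicates 1 to 3 and 28.8, 33.2 and 29.04 across hyperoside replicates 1 to 3. Every hyperoside library lay below the tight control values. The means were 40.7 ± 0.286 and 30.4 ± 2.48 CPM (SD, n = 3 each), 74.6% of the control level (log2 fold change -0.42, SE 0.09, edgeR adjusted p = 0.00102, 95% interval -0.61 to -0.23). Its exons share 228 bases with NMRAL1 on the opposite strand. HMOX1, the inducible oxygenase and a known target of NRF2, was at 0 counts throughout the control group and at 1, 1 and 0 counts across hyperoside replicates 1 to 3, so it lay within the 3 counts that a count of 0 allows and no difference was detectable. HMOX2 was thus the heme oxygenase whose transcript could be compared.

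**Figure D2:**
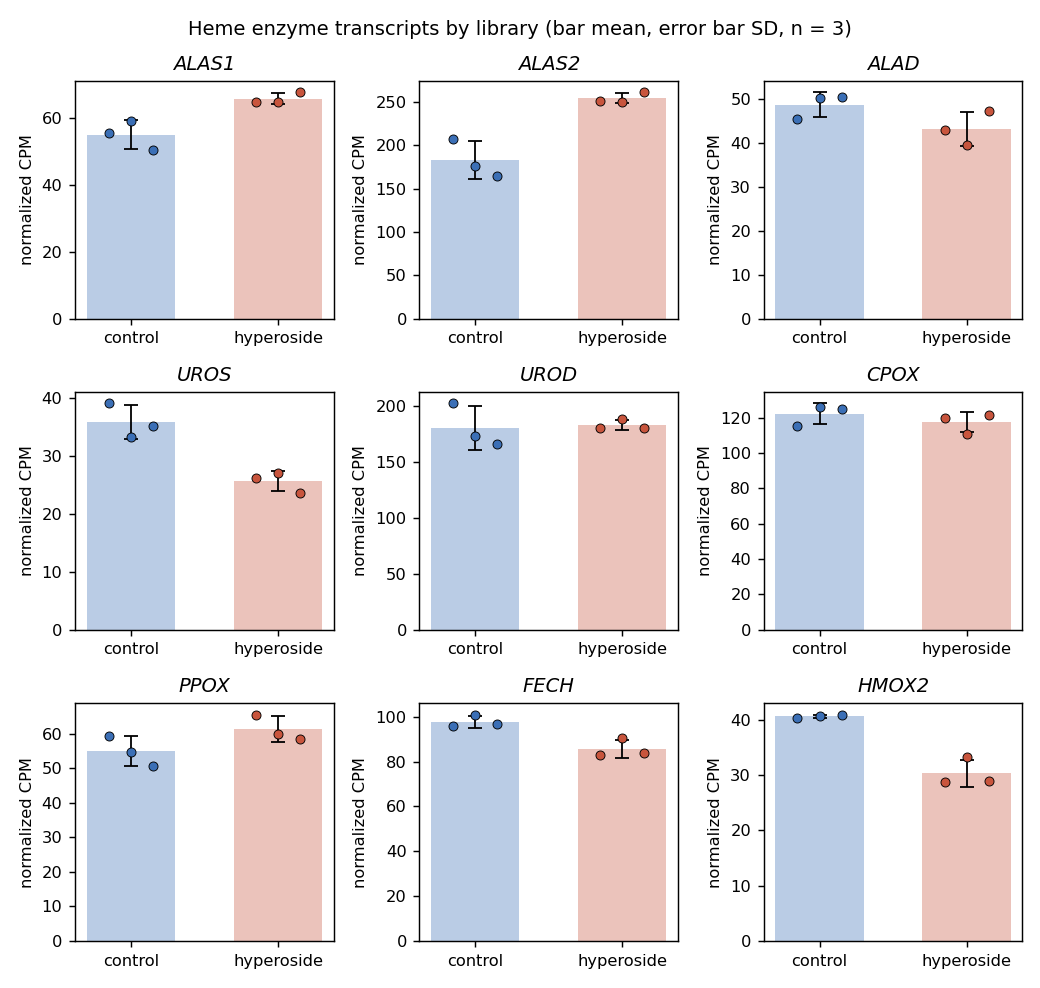
Normalized CPM of the 9 genes by group, with points for libraries, bars for the mean of 3 and error bars for the SD; each vertical axis starts at 0. The hyperoside libraries lie above all controls for ALAS1 and ALAS2 and below all controls for UROS, FECH and HMOX2.

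**Figure D3:**
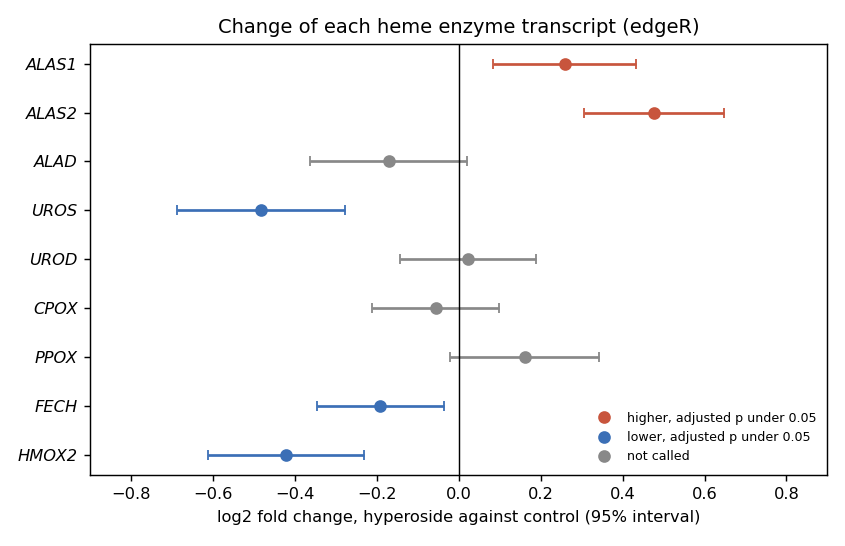
Log2 fold change of hyperoside against control with its 95% interval from edgeR for each of the 9 genes, colored by call. The intervals of ALAS1 and ALAS2 lie above 0, those of UROS, FECH and HMOX2 below 0, and the others include 0.

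Genes that feed, carry or use heme were listed alongside. Over 7 lists with 69 genes besides the members, 64 were tested, of which 7 were called higher and 29 lower, and their log2 fold changes had a median of -0.19 against 0.0032 for all tested genes. Over all tested genes 22.1% were called higher and 23.2% lower, and the counts of each list below are to be read against these shares. The lists were chosen with earlier results of these data known, so their counts are descriptions.

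Among carriers of glycine, iron, porphyrins and heme, 12 of 13 genes were tested (FLVCR2 was not), 1 was called higher and 8 lower, and their log2 fold changes had a median of -0.31. The gene called higher was SLC25A37, mitoferrin 1, which brings iron into the mitochondria of erythroid cells. It had 683, 661 and 615 CPM across control replicates 1 to 3 and 1030.3, 1004 and 957 across hyperoside replicates 1 to 3, with no overlap. Its log2 fold change was 0.61 (standard error 0.07, edgeR adjusted p = 1.01e-06). ABCB6, a porphyrin transporter, fell from 50.1 ± 7.78 to 24.7 ± 1.37 CPM (SD, n = 3 each; log2 fold change -1.02, standard error 0.11, edgeR adjusted p = 6.40e-07). ABCG2, a transporter that exports drugs and porphyrins, had 4.83, 3.52 and 4.53 CPM across control replicates 1 to 3 and 0.381, 1.25 and 0.305 across hyperoside replicates 1 to 3, giving a log2 fold change of -2.72 (SE 0.39, edgeR adjusted p = 2.16e-05). ABCB6 and ABCG2 were the only genes of the 7 lists with a fold change above 2.

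For iron-sulfur cluster assembly, 15 of 15 genes were tested, 1 was called higher and 6 lower, and their log2 fold changes had a median of -0.20. GLRX5, a glutaredoxin that passes on the new cluster, fell from 82.1 ± 5.36 to 50.4 ± 1.48 CPM (SD, n = 3 each; log2 fold change -0.70, standard error 0.08, edgeR adjusted p = 1.71e-06). ISCU, the scaffold on which clusters are built, fell from 73.9 to 54.3 CPM on average, or by 0.44 on the log2 scale (SE 0.08, edgeR adjusted p = 1.70e-04). FECH, which carries such a cluster, thus fell beside these genes, and no relation between them was tested. The gene called higher was IBA57, with a log2 fold change of 0.35, named after its value was seen.

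On the side of heme breakdown and binding, 4 of 6 genes were tested (HMOX1 and HPX were not) and all 4 were called lower, and their log2 fold changes had a median of -0.38. HEBP1, a heme-binding protein, fell from 19.6 ± 2.33 to 10.2 ± 0.794 CPM (SD, n = 3 each; log2 fold change -0.93, standard error 0.12, edgeR adjusted p = 8.50e-06). BLVRB, a biliverdin reductase abundant in red cells, fell from 251 ± 32.1 to 185 ± 6.17 CPM (SD, n = 3 each; log2 fold change -0.44, standard error 0.08, edgeR adjusted p = 3.34e-04). The others were BLVRA and HEBP2, with log2 fold changes of -0.32 and -0.25, named after their values were seen. HMOX2 and each tested gene of this list were therefore lower in the hyperoside group. Globins, which also bind heme, form a list of their own below, and not all of them were lower.

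The next list held genes of glycine and succinyl-CoA supply, and CLPX, CLPP and LONP1 of mitochondrial protein turnover, which supply neither. It gave 1 gene called higher and 3 lower among 10 tested, with a median of -0.14. Besides SHMT2, those called lower were LONP1 (-0.39) and CLPP (-0.31), named after their values were seen. OGDH, the first subunit of the complex that makes succinyl-CoA, rose from 42.95 ± 0.422 to 65.01 ± 2.78 CPM (SD, n = 3 each; log2 fold change 0.60, standard error 0.08, edgeR adjusted p = 1.02e-05). SHMT2, which makes glycine in mitochondria, fell from 231 ± 12.8 to 155 ± 4.30 CPM (SD, n = 3 each; log2 fold change -0.58, standard error 0.07, edgeR adjusted p = 3.49e-06). For COX10, COX15 and HCCS, which turn heme into heme a or attach it to cytochrome c, edgeR called 0 of 3 genes, and the log2 fold changes were 0.05, -0.07 and -0.22. HCCS alone had an unadjusted p under 0.05 in edgeR, and its edgeR adjusted p was 0.0508.

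Among 11 tested regulators (PPARGC1A was not tested), 4 were called higher and 2 lower, with a median of 0.09. KLF1, an erythroid factor that binds CACCC boxes, had 45.1, 31.2 and 35.5 CPM across control replicates 1 to 3 and 65.01, 77.3 and 74.8 across hyperoside replicates 1 to 3. Its log2 fold change was 0.96 (standard error 0.11, edgeR adjusted p = 2.64e-06). NFE2, an erythroid factor whose binding sites resemble the antioxidant response element, rose from 100.004 ± 16.2 to 182 ± 14.8 CPM (SD, n = 3 each; log2 fold change 0.87, standard error 0.10, edgeR adjusted p = 1.49e-06). GATA1, the factor bound at GATA motifs, did not pass, with a log2 fold change of -0.06 (edgeR adjusted p = 0.619). Named after their values were seen, the other regulators called higher were ZFPM1 (0.58) and PPARGC1B (0.34), and those called lower were the heme-regulated kinase EIF2AK1 (-0.35) and the iron regulatory protein ACO1 (-0.22).

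Globins, the chains that bind heme in hemoglobin, are made in step with heme in red cell precursors. Of 9 tested globin genes (HBM was not tested), 0 were called higher and 6 lower, and their log2 fold changes had a median of -0.57. HBG2 fell from 1303 ± 205 to 749 ± 69.8 CPM and HBG1 from 461 ± 91.7 to 252 ± 20.6 CPM (SD, n = 3 each), with log2 fold changes of -0.80 and -0.87. HBG1 and HBG2 are near-identical copies that can share reads, as are HBA1 and HBA2, so values of the separate copies are uncertain.

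**Figure D4:**
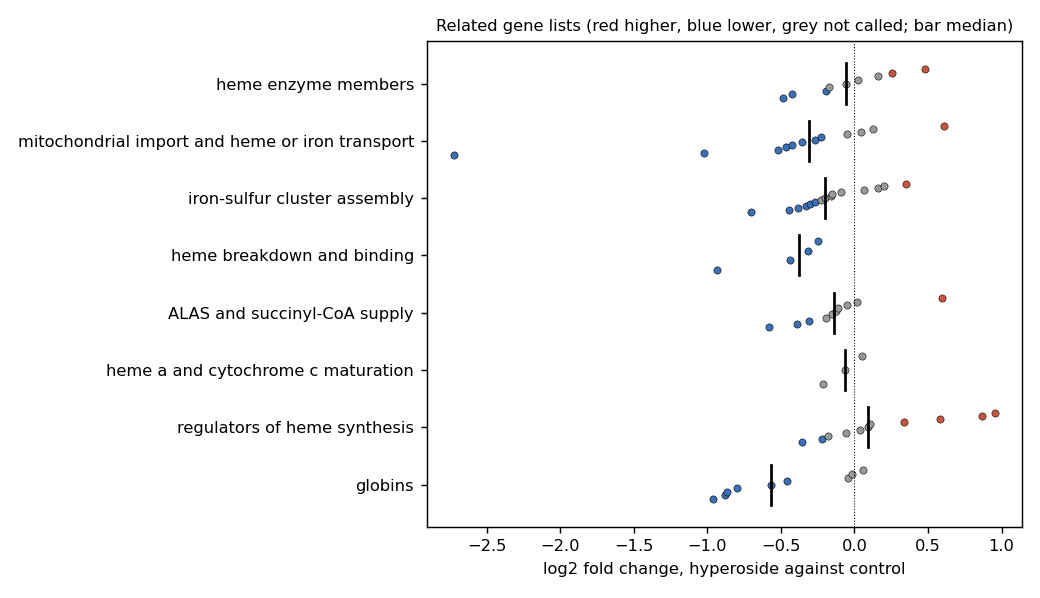
Log2 fold change of hyperoside against control for each tested gene of the heme enzymes and the 7 related lists, red for called higher, blue for called lower and grey for not called, with a bar at each list's median. The globins and the breakdown genes lie mostly or wholly below 0, with medians of -0.57 and -0.38, and the heme enzymes lie on both sides.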

How the data were processed

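RNA from 6 K562 libraries was analysed, with groups and replicate numbers taken from the sample labels. The authors deposited raw counts per gene, which are not normalized, and FPKM values, made by dividing the counts by the length of the gene and the total of the library. The submitters' processing notes name fastp, HISAT2 and HTSeq with build hg38; versions, annotation and strand are not given in the sources used here. Counts were filtered with filterByExpr (minimum count 10, minimum total 15), scaled by TMM and tested over 15095 genes with the quasi-likelihood test of edgeR 4.0.16 in R 4.3.3, with condition as the only term and Benjamini-Hochberg adjustment over all tested genes. Standard errors are the log2 fold change divided by the square root of F. The ALAS ratio was compared as log2(FPKM + 0.01). The paper names DESeq, and DESeq2 1.42.0 and limma 3.58.1 on log2(FPKM + 1) or log2(FPKM + 0.1) served as alternatives, beside other scaling, no filter, a replicate number term and leaving out each library. The edgeR, DESeq2 and limma fits were also run on simulated counts, and the ratio, nearest-gene and sequence steps were not. The members and lists were chosen with earlier results of these data known. Named genes were all members, and from each related list the DEGs and the 2 genes with the smallest adjusted p. Positions came from GENCODE 29, promoters from RefSeq GRCh38.p14. The set follows the 9 symbols and is not the whole pathway. Annotation columns of the tables other than symbols and gene numbers were not used here.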

Additional observations from a re-analysis of the deposited data

How the results depend on the processing

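For ALAS2, UROS and HMOX2, each of 13 alternatives gave the same direction and a call, and CPOX stayed lower and uncalled in its 13, with log2 fold changes from -0.093 without control replicate 1 to -0.0067 with limma on log2(FPKM + 1), and -0.017 without hyperoside replicate 2. The ALAS2 to ALAS1 difference lay between 0.15 and 0.31 on the log2 scale over its alternatives. Requiring a fold change above 2 left 970 genes higher and 567 lower, and 0 and 0 members. FECH lost its call without the filter on low counts (log2 fold change -0.18), with the replicate block (-0.19), with limma on log2(FPKM + 1) (-0.13) or log2(FPKM + 0.1) (-0.14), and with library totals in place of TMM (-0.14), a scaling added after seeing the data that also gave PPOX a call (0.21); the cause was not tested. Library totals moved the median of all genes by 0.05.

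Leaving out each library in turn gave 1 to 3 members called higher and 2 to 4 lower, 4 to 7 related genes called higher and 22 to 29 lower. Among all tested genes the same fits called 2700 to 3549 higher and 2858 to 3618 lower. The most in each direction came without control replicate 1. The log2 fold change then ranged from 0.20 to 0.31 for ALAS1, -0.23 to -0.11 for ALAD, -0.037 to 0.12 for UROD, 0.10 to 0.22 for PPOX and -0.23 to -0.16 for FECH. UROD turned to -0.0093 without control replicate 2 and to -0.037 without control replicate 3. Without hyperoside replicate 2 the related genes called higher numbered 4. A fit that leaves 2 libraries in a group rests on fewer degrees of freedom.

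Same-numbered libraries did not deviate together (correlations over genes of -0.081, -0.033 and -0.034), so the numbers are not taken as pairs. With the replicate block 3026 genes were called higher and 3103 lower, and 2 members each way; apart from FECH it changed no call of a member. ALAD and PPOX gained a call without control replicate 1. Depth did not limit the members, whose lowest count was 857. Their intervals rest on the spread between 3 libraries per group, moderated across all tested genes.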
